A study of Solanum lycopersicum with 27 samples.

Results

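The genes followed here make and break down GABA (gamma-aminobutyric acid), an amino acid that tomato fruit stores before ripening. The set was fixed by gene identifier, not by a rule on measured values, though earlier results of these data were then known. It comprised 4 of the 34075 genes in the deposited table. There were 3 for synthesis, GAD1 (Solyc03g098240), GAD2 (Solyc11g011920) and GAD3 (Solyc01g005000), and 1 for breakdown, GABA-TP1 (Solyc07g043310). All 4 were present and passed the filter on low values that left 18906 genes for testing. The deposited table holds identifiers only. The names are those under which the set was listed, and no source used here pairs them with these identifiers. RefSeq lists all 4 names in tomato, each on a chromosome with the number that the identifier carries. The name GAD3 belongs there to 2 genes, both on that chromosome, so it does not single out 1 gene.

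GAD is glutamate decarboxylase, the cytosolic enzyme that turns glutamate into GABA, and in plants it is activated by calcium and calmodulin. GABA-TP1 is a mitochondrial GABA transaminase that moves the amino group of GABA onto pyruvate or glyoxylate and leaves succinic semialdehyde. That product is oxidised to succinate and enters the citric acid cycle. Together these steps form the GABA shunt. In tomato, GABA builds up in green fruit and declines as fruit ripens. GAD2 and GAD3 are known as the isoforms on which fruit GABA chiefly depends, and fruit with less GABA-TP1 keeps more GABA.

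RNA sequencing of fruits of tomato (Solanum lycopersicum, cultivar Ailsa Craig), grown without treatment, gave 27 libraries in 9 groups of 3. At 34 days post anthesis (dpa), labelled the breaker stage, the groups were the mutants dml2-3, rin/tdr4-1, rin-1, tdr4-1 and nor-1 and the wild type (WT). At 25 dpa they were dml2-3, rin/tdr4-1 and WT. RIN and TDR4 belong to the MADS-box family of transcription factors and NOR to the NAC family, while DML2 removes DNA methylation. The question behind the series is what the MADS-box pair does in ripening and its epigenetic regulation. The labels name fruits with no finer tissue. They do not say how many plants or lines stand behind a group, so p-values measure the spread between libraries only. In such bulk samples fewer cells of a type and less RNA per cell cannot be told apart.

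Values are FPKM, that is fragment counts scaled for gene length and sequencing depth, so levels of different genes can be set side by side. They hold no read numbers, and the depth of each library is unknown. Replicate 3 of dml2-3 at 25 dpa stood apart from its group, with r of 0.917 and 0.916 to replicates 1 and 2 against 0.990 between those. Within the other 8 groups r was at least 0.981. Changes are log2 differences of FPKM + 1 from limma, with its standard error (SE), and a gene was called at an adjusted p under 0.05 over all 18906 genes. The spread of a gene was estimated over all 9 groups together. A library that stands apart thus also bears on comparisons of other groups. The median gene itself differed between groups. It lay at -0.51 for WT at 34 dpa against WT at 25 dpa, and at 0.42, 0.51 and 0.23 for dml2-3, rin/tdr4-1 and rin-1 against WT at 34 dpa. For tdr4-1 and nor-1 it lay at -0.059 and 0.036. Division of each library by a median-of-ratios size factor brought these 6 medians to between -0.034 and 0.039, and the changes under that scaling stand beside the main ones. The other scalings tried were TPM, which sets all libraries to the same total, and quantile scaling, which gives all libraries the same distribution.

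Over all libraries GAD1 was the most abundant of the 4, at 316 to 1131 FPKM, and ranked between 57 and 433 among all genes of a library. GAD2 spanned 18.2 to 267 FPKM, GABA-TP1 spanned 62.0 to 243 FPKM, and GAD3 spanned 0.84 to 19.7 FPKM. The highest group mean exceeded the lowest by 18.3 times for GAD3, 13.8 times for GAD2, 3.42 times for GABA-TP1 and 3.26 times for GAD1. With size factors these folds were 11.3 for GAD3, 11.2 for GAD2, 2.74 for GABA-TP1 and 4.16 for GAD1, so which of GABA-TP1 and GAD1 varied least depended on the scaling. In FPKM as deposited the lowest library of GAD1 exceeded the highest library of each other gene.

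**Figure D1:**
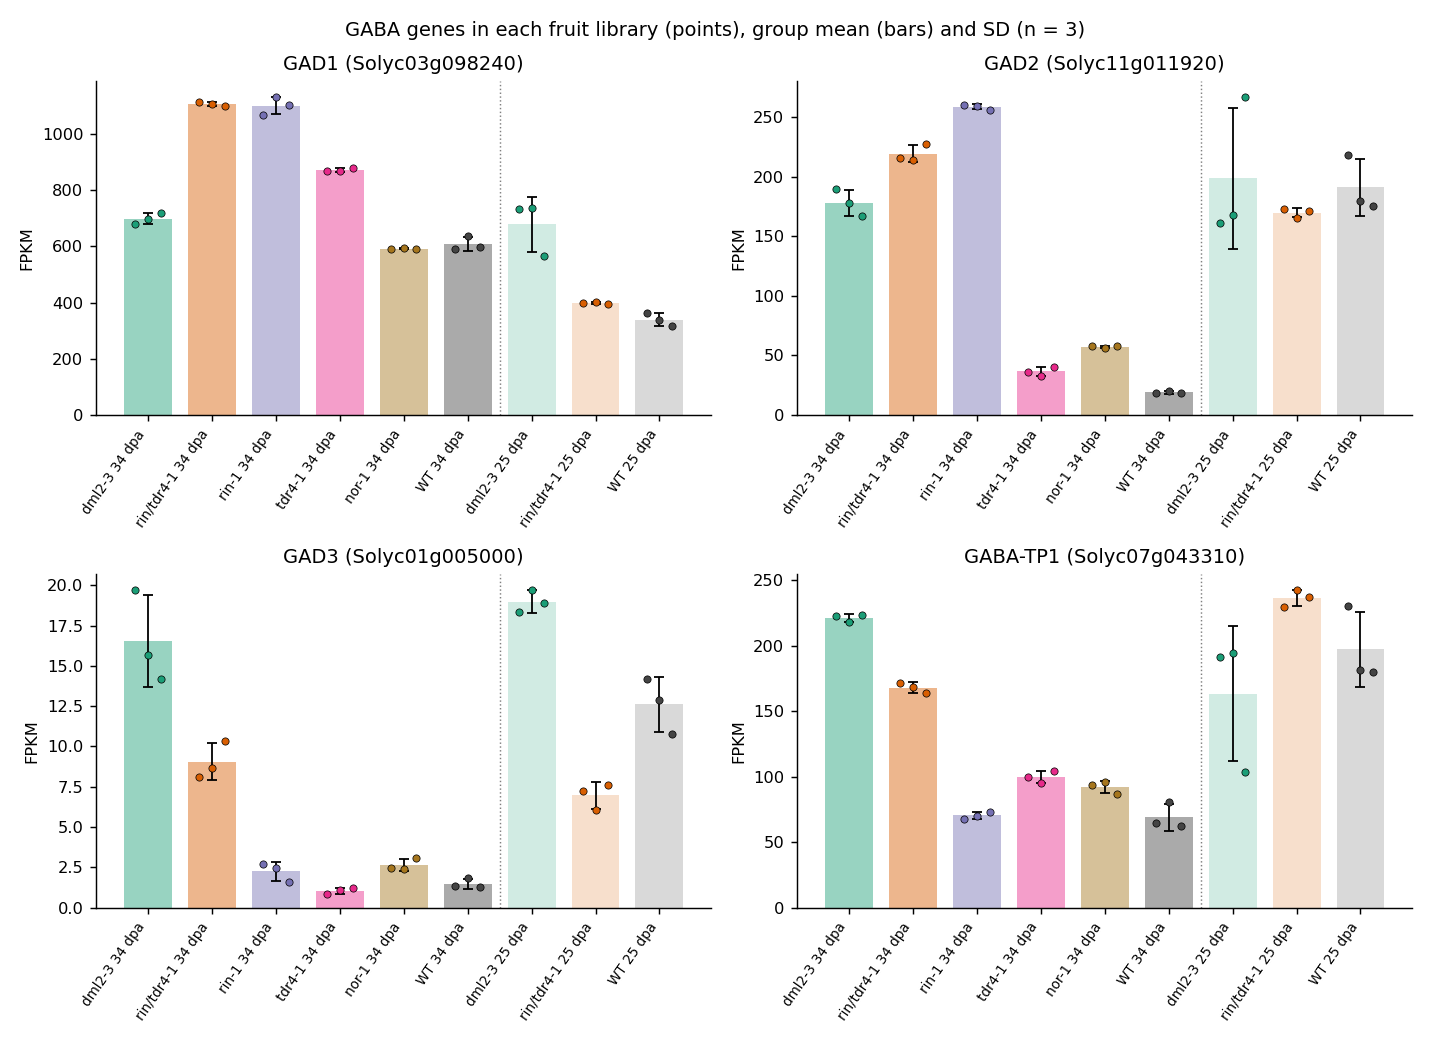
FPKM (y axis) of GAD1, GAD2, GAD3 and GABA-TP1 in each of the 9 groups (x axis), with 34 dpa left of the dotted line and 25 dpa right of it. Points are libraries in the order of their replicate numbers, bars are means and whiskers SD (n = 3). WT fruit at 34 dpa has the lowest GAD2 of all groups (18.2 to 20.1 FPKM), and rin-1 fruit combines high GAD2 with low GABA-TP1.

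In WT fruit GAD2, GAD3 and GABA-TP1 fell between the stages and GAD1 rose. GAD2 had 18.2, 20.1 and 18.2 FPKM in WT at 34 dpa, against 218, 179.9 and 175 FPKM in WT at 25 dpa. The log2 difference was -3.27 (SE 0.12, adjusted p = 7.96e-16 from limma; -2.70 with size factors), and 3.40% of tested genes had a change this low or lower. GAD3, which was far scarcer, had 1.33, 1.85 and 1.25 FPKM in WT at 34 dpa, against 14.2, 12.9 and 10.8 FPKM in WT at 25 dpa. Its change was -2.46 (SE 0.14, adjusted p = 8.80e-13; -2.02 with size factors). It was -3.02 with 0.1 FPKM added in place of 1, and -1.48 with quantile scaling. Stages did not overlap for either isoform.

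GABA-TP1 also fell, to 64.4, 80.9 and 62.0 FPKM in WT at 34 dpa, against 230.0, 181 and 179.8 FPKM in WT at 25 dpa. The change was -1.50 (SE 0.16, adjusted p = 1.44e-08), and -0.92 with size factors (adjusted p = 2.59e-06). GAD1 went the other way, with 592, 638 and 599.8 FPKM in WT at 34 dpa, against 364, 337 and 316 FPKM in WT at 25 dpa. It rose by 0.85 (SE 0.074, adjusted p = 9.18e-10), and by 1.43 with size factors. Both genes were separated between the stages in every library. One of the 4 genes was thus called higher and 3 lower, while 15.3% of tested genes were called higher and 61.7% lower. With size factors those shares were 36.0% and 38.7%. The median difference of the 4 genes was -1.98, against -0.51 for all tested genes. A fall between these stages was by itself common, and the count does not set the 4 genes apart.

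Each mutant was set against the same WT libraries at 34 dpa, so the 5 comparisons share their controls. GAD2 was higher than in WT in all 5 mutants, in every library. It had 189.7, 178 and 168 FPKM in dml2-3, against 18.2, 20.1 and 18.2 FPKM in WT, a difference of 3.18 (SE 0.12, adjusted p = 1.15e-15; 2.68 with size factors). The double mutant rin/tdr4-1 had 216, 214.5 and 228 FPKM, 3.48 above WT (SE 0.12, adjusted p = 3.83e-16; 2.90 with size factors). With 260.5, 259.9 and 257 FPKM, rin-1 lay 3.71 above WT (SE 0.12, adjusted p = 1.21e-16; 3.44 with size factors). In FPKM as deposited, GAD2 in dml2-3 and rin/tdr4-1 overlapped WT at 25 dpa, and in rin-1 it lay above it. With size factors rin/tdr4-1 (180 to 192) also lay above WT at 25 dpa (151 to 178). The share of tested genes that were as high or higher against WT was 2.65% in dml2-3, 1.43% in rin/tdr4-1 and 1.24% in rin-1.

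The other 2 single mutants had much less GAD2. It stood at 57.6, 56.5 and 58.0 FPKM in nor-1, against the same 18.2 to 20.1 FPKM in WT, a difference of 1.56 (SE 0.12, adjusted p = 4.94e-10; 1.53 with size factors). In tdr4-1 it stood at 35.7, 33.1 and 40.6 FPKM, 0.92 above WT (SE 0.12, adjusted p = 6.14e-06; 1.02 with size factors). Both lay between WT at 34 dpa and WT at 25 dpa without overlap with either. Set directly against each other, rin-1 exceeded nor-1 by 2.15 (SE 0.12, adjusted p = 7.71e-12) and tdr4-1 by 2.80 (SE 0.12, adjusted p = 2.77e-14).

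GAD3 separated the mutants differently. It had 19.7, 15.7 and 14.2 FPKM in dml2-3, against 1.33, 1.85 and 1.25 FPKM in WT, a difference of 2.82 (SE 0.14, adjusted p = 7.95e-14; 2.45 with size factors and 3.41 with 0.1 FPKM added). In rin/tdr4-1 it had 8.13, 8.69 and 10.3 FPKM, 2.02 above WT (SE 0.14, adjusted p = 2.82e-11; 1.59 with size factors, 1.05 with quantile scaling and 2.55 with 0.1 FPKM added). All libraries of both genotypes lay above all WT libraries. In nor-1 it had 2.48, 2.40 and 3.10 FPKM, which is 0.57 above WT (SE 0.14, adjusted p = 0.00155), with no overlap. That call ended with quantile scaling, at 0.21 and adjusted p = 0.188, and over the 35 alternatives the adjusted p ran from 0.000569 to 0.188.

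GAD3 stayed low in the other 2 mutants. In rin-1 it had 2.73, 2.43 and 1.61 FPKM, overlapping WT, with a difference of 0.39 (SE 0.14, adjusted p = 0.0205). Other processing ended this call. Size factors gave 0.21 (adjusted p = 0.183), TPM 0.30 (adjusted p = 0.0773), quantile scaling -0.26 (adjusted p = 0.0981) and a fit of rin-1 and WT by themselves 0.39 (adjusted p = 0.0857). It also ended without replicate 1 or 2 of rin-1 (0.28 and 0.34, adjusted p = 0.118 and 0.0714) or without replicate 1 or 3 of WT (0.35 and 0.32, adjusted p = 0.0672 and 0.0845), in a range of 0.00269 to 0.183. In tdr4-1 it had 0.84, 1.09 and 1.19 FPKM, all below WT, and the difference of -0.28 was not called (95% interval -0.57 to 0.019, adjusted p = 0.141). Quantile scaling gave -0.42 with adjusted p = 0.0229, in a range of 0.0229 to 0.449. With 0.1 FPKM added it was -0.46 (adjusted p = 0.0526). Every library of either single MADS-box mutant lay below every library of the double mutant.

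GAD1 was higher than in WT in rin/tdr4-1, rin-1 and tdr4-1, and the order of these 3 depended on the scaling. It had 1115, 1108 and 1099 FPKM in rin/tdr4-1, against 592, 638 and 599.8 FPKM in WT, a difference of 0.86 (SE 0.074, adjusted p = 8.05e-10). With size factors this was 0.26 (adjusted p = 0.000698). In rin-1 it had 1069.6, 1131 and 1105 FPKM, 0.85 above WT (SE 0.074, adjusted p = 1.21e-09; 0.56 with size factors). The values of tdr4-1 were 868, 867 and 881 FPKM, 0.52 above WT (SE 0.074, adjusted p = 1.10e-05; 0.62 with size factors). None of these 3 genotypes overlapped WT. In FPKM tdr4-1 was the lowest of them, and with size factors it had the highest mean.

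In dml2-3 and nor-1 GAD1 lay close to WT. The dml2-3 libraries had 679, 698 and 718 FPKM, above all WT libraries, with a difference of 0.19 (SE 0.074, adjusted p = 0.0217). The direction depended on the scaling, since size factors gave -0.32 (adjusted p = 9.82e-05), TPM 0.40 and quantile scaling 0.43. The call also ended without replicate 3 of dml2-3 (0.17, adjusted p = 0.0706) or replicate 1 or 3 of WT (0.17 and 0.18, adjusted p = 0.0695 and 0.0570), in a range of 2.63e-05 to 0.0706 over the alternatives. In nor-1 it had 591, 594 and 591 FPKM, overlapping the lowest WT library, and the difference of -0.043 was not called (95% interval -0.20 to 0.11, adjusted p = 0.645).

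GABA-TP1, the breakdown gene, was, like GAD3, highest in dml2-3 and then rin/tdr4-1 at this stage. It had 222, 218 and 224 FPKM in dml2-3, against 64.4, 80.9 and 62.0 FPKM in WT, a difference of 1.67 (SE 0.16, adjusted p = 2.53e-09; 1.17 with size factors). In rin/tdr4-1 it had 171.5, 169 and 163 FPKM, 1.28 above WT (SE 0.16, adjusted p = 1.75e-07; 0.69 with size factors, adjusted p = 0.000101). No library of these mutants overlapped WT. With size factors GABA-TP1 of rin/tdr4-1 (mean 141) overlapped that of tdr4-1 (mean 136), and they were not called apart (0.054, adjusted p = 0.734 from limma). In rin-1 it had 67.7, 70.0 and 73.2 FPKM, inside the WT range, with a difference of 0.034 (95% interval -0.29 to 0.36, adjusted p = 0.867). The interval ended well below the 1.28 of the double mutant, and the other scalings moved the value to between -0.26 and -0.10. With size factors all rin-1 libraries (70.4 to 76.0) lay below all WT libraries (81.0 to 97.3), though the difference was not called (adjusted p = 0.0967 from limma).

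The 2 remaining mutants lay somewhat above WT in GABA-TP1. The tdr4-1 libraries had 99.6, 95.4 and 104 FPKM, 0.53 above WT (SE 0.16, adjusted p = 0.00995; 0.63 with size factors). The nor-1 libraries had 93.6, 95.9 and 87.0 FPKM, 0.42 above WT (SE 0.16, adjusted p = 0.0240). The nor-1 call ended with quantile scaling (0.36, adjusted p = 0.05), without replicate 1 or 2 of nor-1 (0.41 and 0.39, adjusted p = 0.0570 and 0.0672) or without replicate 1 or 3 of WT (0.37 and 0.35, adjusted p = 0.0774 and 0.0962), in a range of 0.000156 to 0.0962. Neither mutant overlapped WT.

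**Figure D2:**
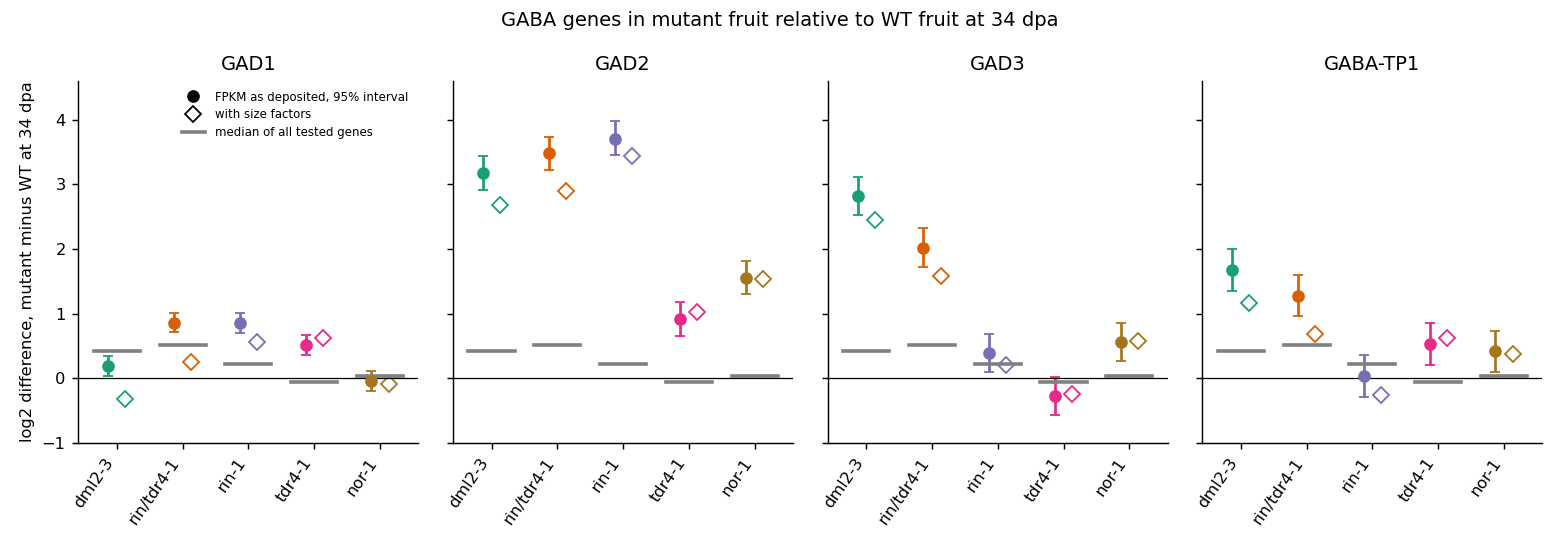
Log2 difference of each mutant from WT at 34 dpa (y axis) for GAD1, GAD2, GAD3 and GABA-TP1, by mutant (x axis). Filled points are limma values with 95% intervals (n = 3 libraries a group), open diamonds the values with size factors, grey bars the median of all tested genes. GAD2 has the highest value in each mutant, at 3.71 in rin-1, although in dml2-3 GAD3 exceeds it when 0.1 FPKM is added in place of 1 (3.41 against 3.24), and GAD1 in dml2-3 lies at 0.19 or at -0.32 with size factors.

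The counts have to be read against many changes across all genes. In dml2-3 all 4 genes were called higher than in WT, where 57.0% of tested genes were called higher and 18.0% lower (38.0% and 34.7% with size factors). In rin/tdr4-1 all 4 were called higher, where 61.3% were called higher and 15.2% lower (36.7% and 34.2%). In rin-1 it was 3 of 4, all higher, with 46.2% of genes higher and 20.9% lower (34.8% and 33.2%). For tdr4-1 it was also 3 of 4, all higher, with 13.5% of genes higher and 22.7% lower (19.4% and 16.4%). In nor-1 3 of 4 were higher, with 33.2% of genes higher and 28.1% lower (32.5% and 31.4%). There 54.1% of all called genes were higher, or 40.7% with quantile scaling. The median difference of the 4 genes was 2.25 in dml2-3, 1.65 in rin/tdr4-1, 0.62 in rin-1, 0.52 in tdr4-1 and 0.49 in nor-1. In dml2-3, rin/tdr4-1 and rin-1 a large share of all genes was called higher, so that the counts there by themselves say little of the 4 genes. The same holds for nor-1, where 61.3% of tested genes were called in either direction. With size factors the count for rin-1 was 2 of 4, and in dml2-3 it was 3 higher and 1 lower. With quantile scaling the count for nor-1 was 1 of 4, with 63.8% of all genes called in either direction. That for rin-1 was 2 of 4, with 68% of all genes. The count for tdr4-1 was 4 of 4, with GAD3 called lower (-0.42). There 2674 of the 18906 tested genes were called higher and 3970 lower.

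At 25 dpa the mutants already differed from WT in some of the genes. GAD1 had 734, 738 and 567 FPKM in dml2-3, against 364, 337 and 316 FPKM in WT, a difference of 0.99 (SE 0.074, adjusted p = 3.63e-10). Replicate 3 was the lowest of the mutant libraries and still above all WT libraries, and without it the difference was 1.12 (adjusted p = 2.25e-14, in a range of 2.25e-14 to 0.00555). GAD3 had 18.3, 19.7 and 18.9 FPKM in dml2-3, against 14.2, 12.9 and 10.8 FPKM in WT, a difference of 0.56 (SE 0.14, adjusted p = 0.00215). For GAD3 replicate 3 lay between its partners.

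GAD2 and GABA-TP1 at 25 dpa rested on replicate 3 of dml2-3. GAD2 had 162, 168 and 267 FPKM in dml2-3, against 218, 179.9 and 175 FPKM in WT, and its difference of 0.025 was not called (adjusted p = 0.883). Without replicate 3 it was -0.21 and called (adjusted p = 0.0305, in a range of 0.0305 to 0.945). GABA-TP1 had 191, 194 and 104 FPKM in dml2-3, against 230.0, 181 and 179.8 FPKM in WT. Its difference of -0.32 was not called (adjusted p = 0.0901). It was -0.021 without replicate 3 (adjusted p = 0.859), and it was called without replicate 1 (-0.46, adjusted p = 0.0246), without replicate 2 (-0.47, adjusted p = 0.0198) and with TPM (-0.36, adjusted p = 0.0453), in a range of 0.0198 to 0.859. In that library GAD1 and GABA-TP1 were low and GAD2 was high relative to its partners.

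In the double mutant at 25 dpa GAD3 was lower than in WT and GAD1 higher. GAD3 had 7.24, 6.03 and 7.60 FPKM in rin/tdr4-1, against 14.2, 12.9 and 10.8 FPKM in WT, a difference of -0.77 (SE 0.14, adjusted p = 0.000217) without overlap. GAD1 had 399, 403 and 396 FPKM in rin/tdr4-1, also without overlap, 0.24 above WT (SE 0.074, adjusted p = 0.0164; 0.44 with quantile scaling). The GAD1 call ended when replicate 3 of WT (0.19, adjusted p = 0.0924) was left out, as it did for replicate 2 of rin/tdr4-1 (0.23, adjusted p = 0.0504), in a range of 0.000124 to 0.0924. GAD2 (173, 166 and 171 FPKM) and GABA-TP1 (229.9, 243 and 237 FPKM) were not called, at -0.16 (adjusted p = 0.351) and 0.27 (adjusted p = 0.198). For GABA-TP1 the call was made with quantile scaling (0.46, adjusted p = 0.0265) and, with the same 0.27, when replicate 3 of dml2-3 at 25 dpa was left out of the shared estimate of spread (adjusted p = 0.0127, in a range of 0.0127 to 0.418).

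At 25 dpa 2 of the 4 genes were thus called in dml2-3, both higher, where 26.7% of tested genes were called higher and 27.8% lower. In rin/tdr4-1 it was 1 higher and 1 lower, where 17.4% of tested genes were higher and 15.3% lower. Of all genes called in that comparison 53.2% were higher, or 63.8% with quantile scaling. Without replicate 3 of dml2-3 it was 3 of the 4 genes in each mutant, and 63.0% and 42.8% of all genes in either direction.

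**Figure D3:**
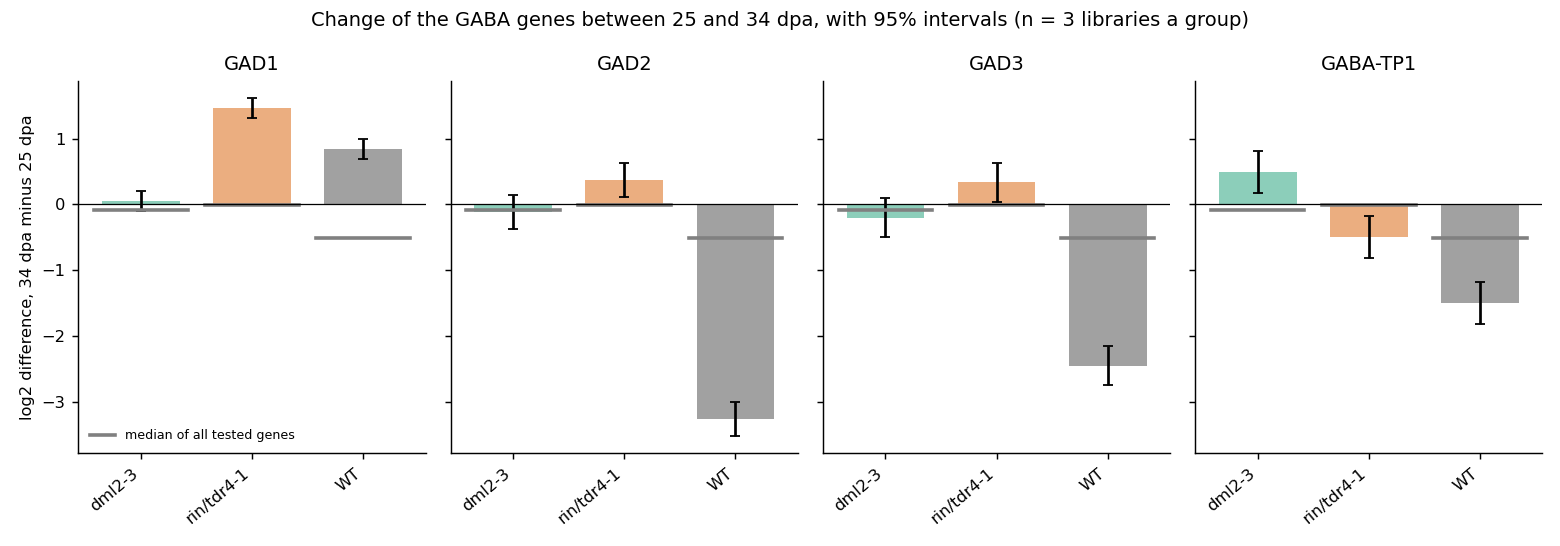
Log2 difference between fruit at 34 dpa and at 25 dpa (y axis) for each gene in dml2-3, rin/tdr4-1 and WT (x axis), with 95% intervals from limma (n = 3 libraries a group) and, in grey, the median of all tested genes. GAD2 (-3.27) and GAD3 (-2.46) fell in WT, were not called in dml2-3 (-0.12 and -0.20), and rose in rin/tdr4-1 (0.37 and 0.34).

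Between the stages the genes moved little in dml2-3. GAD1, GAD2 and GAD3 changed by 0.049, -0.12 and -0.20 (adjusted p = 0.655, 0.498 and 0.299), and none of these was called. With TPM GAD1 was called at 0.24 (adjusted p = 0.0111, in a range of 0.0111 to 0.928). GABA-TP1 was higher at 34 dpa by 0.49 (SE 0.16, adjusted p = 0.0179). This call rested on replicate 3 at 25 dpa, without which the change was 0.20 (adjusted p = 0.0963). It ended as well without replicate 3 at 34 dpa (adjusted p = 0.0503) and with these 2 groups fitted by themselves (adjusted p = 0.276), in a range of 0.00116 to 0.276. So 1 of 4 genes was called, with 33.8% of all tested genes. Without replicate 3 at 25 dpa it was 0 of 4, with 44.4% of all tested genes, and none had an adjusted p below 0.0963.

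In rin/tdr4-1 all 4 genes were called between the stages, with 58.7% of tested genes. GAD1 rose by 1.47 (SE 0.074, adjusted p = 9.25e-13) from its low level at 25 dpa. GABA-TP1 fell by 0.49 on the log2 scale (SE 0.16, adjusted p = 0.0101). GAD2 rose by 0.37 (SE 0.12, adjusted p = 0.0158) and GAD3 by 0.34 (SE 0.14, adjusted p = 0.0475), directions opposite to those in WT. The GAD3 call ended under 18 of 35 alternatives, with an adjusted p of 0.0103 to 0.194, and the GAD2 call ended without replicate 3 at 34 dpa (0.34, adjusted p = 0.0513, in a range of 0.000114 to 0.0513).

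Whether the stage change itself differed from that in WT was tested as an interaction. In dml2-3 the change was 3.15 above that of WT for GAD2 (SE 0.18, adjusted p = 1.16e-12), 2.26 for GAD3 (SE 0.20, adjusted p = 2.05e-09) and 1.99 for GABA-TP1 (SE 0.22, adjusted p = 5.73e-08). For GAD1 it was -0.80 (SE 0.10, adjusted p = 7.20e-07), where the level in dml2-3 was already high at 25 dpa. All 4 genes were called, with 69.1% of tested genes, about a median of 0.45. With size factors the differences were 2.65 for GAD2, 1.89 for GAD3, 1.48 for GABA-TP1 and -1.31 for GAD1. Quantile scaling gave 1.38 for GAD3.

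In rin/tdr4-1 the stage change was 3.64 above that of WT for GAD2 (SE 0.18, adjusted p = 1.29e-13) and 2.79 for GAD3 (SE 0.20, adjusted p = 8.02e-11), or 3.06 and 2.35 with size factors. For GABA-TP1 it was 1.01 (SE 0.22, adjusted p = 0.000356) and for GAD1 0.62 (SE 0.10, adjusted p = 2.03e-05). With size factors both of these were lost, at 0.42 (adjusted p = 0.0579, in a range of 1.39e-07 to 0.0579) and 0.026 (adjusted p = 0.807, in a range of 8.87e-09 to 0.807). All 4 genes were called, with 70.4% of tested genes, about a median of 0.53.

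Fruit with both MADS-box mutations was next compared with fruit carrying 1 of them. This comparison, and that with the added changes below, takes the mutations to be the same in single and double mutants. Against rin-1, GAD3 was higher by 1.64 (SE 0.14, adjusted p = 1.47e-09; 1.38 with size factors) and GABA-TP1 by 1.24 (SE 0.16, adjusted p = 3.67e-07; 0.94 with size factors). GAD2 was 0.24 lower and not called (-0.24, SE 0.12, adjusted p = 0.0965), although no library overlapped. It was called with size factors (-0.54, adjusted p = 0.00106), when these groups were fitted by themselves (adjusted p = 0.000387) and without replicate 3 of dml2-3 at 25 dpa (adjusted p = 0.00538), in a range of 0.000387 to 0.857. GAD1 was level at 0.0072 (adjusted p = 0.940), and its direction depended on the scaling, at 0.31 with quantile scaling (adjusted p = 0.0186) and -0.30 with size factors (adjusted p = 0.000279). So 2 of 4 genes were called, with 69.5% of tested genes, about a median of 0.26.

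Against tdr4-1, the double mutant had more GAD2 by 2.56 (SE 0.12, adjusted p = 6.25e-14) and more GAD3 by 2.30 (SE 0.14, adjusted p = 3.08e-12), or 1.88 and 1.83 with size factors. Quantile scaling gave 1.47 for GAD3. GABA-TP1 was higher by 0.75 (SE 0.16, adjusted p = 0.000168) and GAD1 by 0.34 (SE 0.074, adjusted p = 0.000238). Size factors ended the first of these (0.054, adjusted p = 0.734, in a range of 4.70e-08 to 0.734) and turned the GAD1 difference round (-0.35, adjusted p = 3.03e-05), while quantile scaling gave 0.67 for GAD1. All 4 genes were called, with 79.3% of tested genes, about a median of 0.57.

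Compared with the added changes of both single mutants, the double mutant departed upward for GAD3, by 1.91 (SE 0.20, adjusted p = 3.45e-08), and downward for GAD2, at -1.15 (SE 0.18, adjusted p = 6.86e-06). GAD3 was thus higher in the double mutant than rin-1 and tdr4-1 added together give, and GAD2 lower. GABA-TP1 departed by 0.71 (SE 0.22, adjusted p = 0.00694), which ended with size factors (0.31, adjusted p = 0.163, in a range of 1.66e-05 to 0.163). GAD1 departed by -0.51 (SE 0.10, adjusted p = 0.000208), which ended with quantile scaling (-0.20, adjusted p = 0.267, in a range of 1.07e-08 to 0.267) and was -0.91 with size factors. All 4 genes were called, with 67.7% of tested genes, about a median of 0.36.

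Set against the double mutant at 34 dpa, dml2-3 had more GAD3, by 0.80 (SE 0.14, adjusted p = 5.35e-05), and less GAD1, at -0.66 (SE 0.074, adjusted p = 1.08e-07). GAD2 (-0.30, adjusted p = 0.0434) and GABA-TP1 (0.40, adjusted p = 0.0323) were called as well, but these calls ended under 10 and 7 of 35 alternatives, with adjusted p of 0.00095 to 0.295 and 4.81e-05 to 0.0812. At 25 dpa dml2-3 had more GAD3 (1.33, SE 0.14, adjusted p = 7.87e-08) and more GAD1 (0.75, SE 0.074, adjusted p = 2.28e-08) than the double mutant. GABA-TP1 was lower there, at -0.59 (SE 0.16, adjusted p = 0.00302), or -0.29 without replicate 3 of dml2-3 (adjusted p = 0.0102), and with these groups fitted by themselves the adjusted p was 0.127, in a range of 0.000683 to 0.127. GAD2 was not called (0.19, adjusted p = 0.213), but was without replicate 1 of dml2-3 (0.32, adjusted p = 0.0444, in a range of 0.0444 to 0.661). Called were 4 of 4 genes at 34 dpa and 3 of 4 at 25 dpa, with 60.8% and 54.9% of tested genes.

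Among single mutants, rin-1 had more GAD1 than nor-1, by 0.90 (SE 0.074, adjusted p = 2.02e-09), along with its higher GAD2. GABA-TP1 was lower in rin-1 than in nor-1 (-0.38, SE 0.16, adjusted p = 0.0411), a call that ended under 7 of 35 alternatives (adjusted p = 0.000462 to 0.103) and was -0.63 with size factors. GAD3 was not called (-0.18, adjusted p = 0.298), but was with quantile scaling (-0.47, adjusted p = 0.00732) and after size factors (-0.37, adjusted p = 0.0311), in a range of 0.00732 to 0.897. Relative to tdr4-1, rin-1 had less GABA-TP1 (-0.50, SE 0.16, adjusted p = 0.00766; -0.89 with size factors) and more GAD3 (0.66, SE 0.14, adjusted p = 0.000324; 0.15 and adjusted p = 0.349 with quantile scaling, in a range of 4.57e-05 to 0.349). GAD1 was 0.34 higher there (adjusted p = 0.000419), but -0.058 with size factors (adjusted p = 0.431, in a range of 5.06e-07 to 0.431). Called were 3 of 4 genes against nor-1 and 4 of 4 against tdr4-1, with 54.8% and 65.7% of tested genes.

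Fruit of dml2-3 had more GAD3 than rin-1, by 2.43 (SE 0.14, adjusted p = 2.33e-12), and more GABA-TP1, by 1.64 (SE 0.16, adjusted p = 6.67e-09). It had less GAD1 (-0.66, SE 0.074, adjusted p = 9.45e-08; -0.32 with TPM) and less GAD2 (-0.54, SE 0.12, adjusted p = 0.000761; -0.20 and adjusted p = 0.194 with TPM, in a range of 9.69e-07 to 0.194). Compared with nor-1, it had more of GAD3 (2.25), GAD2 (1.62) and GABA-TP1 (1.26), with adjusted p of 5.83e-12, 1.76e-10 and 2.67e-07. Size factors gave 0.79 for GABA-TP1. GAD1 was 0.24 higher (adjusted p = 0.00661), but -0.23 with size factors (adjusted p = 0.00266, in a range of 2.35e-06 to 0.0276). All 4 genes were called in both comparisons, with 64.5% and 73.3% of tested genes.

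Ordered by group mean of FPKM as deposited, GAD1 was highest in rin/tdr4-1 and rin-1 at 34 dpa (1107 ± 8.00 and 1102 ± 30.9 FPKM, SD, n = 3 here and below), which did not differ beyond their spread. Then came tdr4-1 (872 ± 7.74), dml2-3 at 34 and 25 dpa (698 ± 19.5 and 679.7 ± 97.9), WT at 34 dpa (610.1 ± 24.7), nor-1 (592 ± 1.41), rin/tdr4-1 at 25 dpa (399.6 ± 3.75) and WT at 25 dpa (339 ± 24.3). The 4 groups from dml2-3 at 34 dpa to nor-1 overlapped with their neighbours in the order, and the other neighbours were called. With size factors the GAD1 order was another, led by tdr4-1 (1192 ± 20.8) and rin-1 (1145 ± 30.6), which were not called apart, before rin/tdr4-1 (932 ± 7.96), WT (776 ± 8.38), nor-1 (729.99 ± 3.75) and dml2-3 (623 ± 24.4), all at 34 dpa. The orders of GAD2 and GAD3 were the same with size factors, and that of GABA-TP1 differed only in that WT at 34 dpa (87.6 ± 8.59) stood above rin-1 (73.0 ± 2.77). GAD2 was highest in rin-1 (259 ± 2.09) and rin/tdr4-1 at 34 dpa (219.6 ± 7.41). It was followed by dml2-3 at 25 dpa (199 ± 59.2), WT at 25 dpa (191 ± 23.6), dml2-3 at 34 dpa (178 ± 11.1) and rin/tdr4-1 at 25 dpa (169.9 ± 3.76). No neighbouring pair among these 6 groups was called, although rin-1 and rin/tdr4-1 at 34 dpa did not overlap. Called steps then led down to nor-1 (57.4 ± 0.805), tdr4-1 (36.5 ± 3.83) and WT at 34 dpa (18.8 ± 1.1), with adjusted p of 3.18e-10, 0.000163 and 6.14e-06.

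GAD3 was highest in dml2-3 at 25 and 34 dpa (18.99 ± 0.703 and 16.5 ± 2.84 FPKM), which overlapped. Below them lay WT at 25 dpa (12.6 ± 1.71), rin/tdr4-1 at 34 and 25 dpa (9.05 ± 1.14 and 6.96 ± 0.822), nor-1 (2.66 ± 0.383), rin-1 (2.26 ± 0.580), WT at 34 dpa (1.48 ± 0.326) and tdr4-1 (1.04 ± 0.180). The widest step was that from rin/tdr4-1 at 25 dpa to nor-1, at 1.12 (adjusted p = 3.27e-07), while nor-1 and rin-1, and WT at 34 dpa and tdr4-1, were not called apart. GABA-TP1 was highest in rin/tdr4-1 at 25 dpa (236 ± 6.34), dml2-3 at 34 dpa (221 ± 3.00), WT at 25 dpa (197 ± 28.5), rin/tdr4-1 at 34 dpa (168 ± 4.09) and dml2-3 at 25 dpa (163 ± 51.5), none called apart from its neighbour. Even so, rin/tdr4-1 at 25 dpa did not overlap dml2-3 at 34 dpa, nor did WT at 25 dpa overlap rin/tdr4-1 at 34 dpa. Lower levels were found in tdr4-1 (99.8 ± 4.46), nor-1 (92.1 ± 4.6), rin-1 (70.3 ± 2.79) and WT at 34 dpa (69.1 ± 10.3).

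Shares within a library are unaffected by dividing the library by a single factor, though not by quantile scaling, and are given for FPKM as deposited. GAD1 made up 96.8% ± 0.0954 of the summed FPKM of the 3 GAD genes in WT at 34 dpa, against 62.5% ± 1.35 in WT at 25 dpa. The share of GAD2 was 2.98% ± 0.0541 in WT at 34 dpa, against 35.2% ± 1.34 in WT at 25 dpa. GAD3 held at most 2.43% in any library. In the later WT fruit nearly all of the summed GAD level was thus GAD1.

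In the mutants at 34 dpa GAD1 held a smaller share than in WT, in every library. GAD1 held 78.2% ± 1.69 in dml2-3, 82.9% ± 0.619 in rin/tdr4-1, 80.8% ± 0.503 in rin-1 and 90.8% ± 0.175 in nor-1, against 96.8% ± 0.0954 in WT. In tdr4-1 it held 95.9% ± 0.376, and its libraries (95.5% to 96.2%) lay just below those of WT (96.7% to 96.9%). At 25 dpa the share was 69.3% ± 0.722 in rin/tdr4-1, and 80.3%, 79.7% and 66.4% in the dml2-3 libraries, against 61.0% to 63.6% in WT. The third value, again that of replicate 3, lay nearest to WT.

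**Figure D4:**
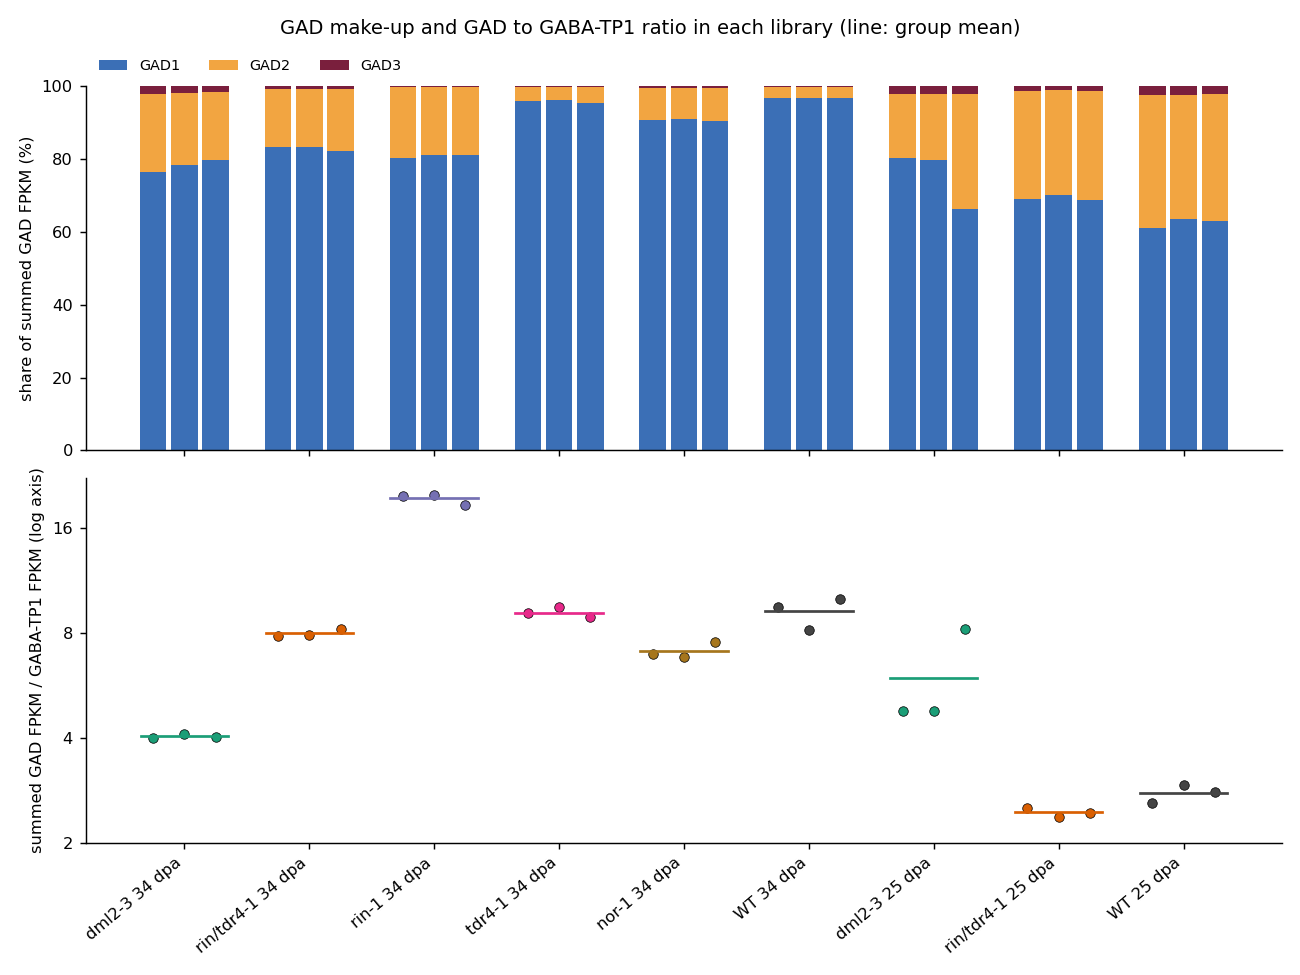
Above, share of GAD1, GAD2 and GAD3 in the summed GAD FPKM of each library (%). Below, summed GAD FPKM divided by GABA-TP1 FPKM in each library (log axis), with lines at group means. Groups run along the x axis with 3 libraries each. The ratio is highest in rin-1 (18.6 to 19.9) and lowest in rin/tdr4-1 at 25 dpa (2.37 to 2.52).

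The summed GAD level set against GABA-TP1 in the same library gave a further view, given as a description without a test. In WT the ratio was 9.22 ± 0.95 at 34 dpa, against 2.77 ± 0.165 at 25 dpa. The mutants at 34 dpa had 4.04 ± 0.0498 (dml2-3), 7.96 ± 0.196 (rin/tdr4-1), 19.4 ± 0.694 (rin-1), 9.13 ± 0.304 (tdr4-1) and 7.09 ± 0.362 (nor-1), against the 8.16 to 9.996 of the WT libraries. Thus all rin-1 libraries lay above WT and all dml2-3 and nor-1 libraries below it, while rin/tdr4-1 overlapped WT and tdr4-1 stayed inside its range. At 25 dpa the ratio was 2.44 ± 0.0753 in rin/tdr4-1 and 4.77, 4.76 and 8.22 in the dml2-3 libraries, against 2.59 to 2.92 in WT. Of the dml2-3 libraries at 25 dpa only replicate 3 reached the range of WT at 34 dpa.

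Across the 9 group means of log2(FPKM + 1), GAD3 and GABA-TP1 ran most alike of the 4 genes (r = 0.83), followed by GAD2 and GAD3 (0.71) and by GAD2 and GABA-TP1 (0.59). GAD1 had r of 0.051, -0.29 and -0.45 to GAD2, GAD3 and GABA-TP1. As Spearman rank correlations the pairs without GAD1 had 0.63, 0.52 and 0.2 in the same order, and GAD1 had 0.42, -0.17 and -0.27. By rank GAD1 and GAD2 thus ran more alike than GAD2 and GABA-TP1. These values and those below are for FPKM as deposited, with no other scaling tried. They are descriptions over groups that share genotypes and ages. Among 13499 other genes with a mean of at least 10 FPKM in some group, the closest to GAD2 was Solyc10g007720.4 (r = 0.992), to GAD3 Solyc06g053230.4 (0.982), to GABA-TP1 Solyc01g081540.4 (0.974) and to GAD1 Solyc01g066290.2 (0.936). At r of 0.95 or more, GAD2 had 145 such genes, GAD3 had 53 and GABA-TP1 had 13, while GAD1 had 0.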

How the data were processed

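The authors deposited 1 table of FPKM values, with a column for each of the 27 libraries that its name ties to a single sample. The tools named in the submitters' processing notes, with neither role nor order, are Trimmomatic, STAR 2.5.4b, RSEM and DESeq2. No source used here gives a genome build or annotation. Genes were kept if 3 or more libraries reached 1 FPKM. Using limma 3.58.1 (R 4.3.3), log2(FPKM + 1) was fitted for all groups at once, with moderated, intensity-dependent variances. The 21 contrasts were each adjusted by the Benjamini-Hochberg procedure over all genes kept. Alternatives were an added 0.1 FPKM, no filter, a mean of at least 5 FPKM, size factors, TPM, quantile scaling, only the groups compared, a replicate block and each library left out. This scale understates changes near 1 FPKM. Exact permutation of 3 against 3 libraries cannot go below p = 0.10 and was not used. The fit was also run on simulated data, in which the noise of a gene was the same in all groups. Those data held no library that stood apart, so they do not bear on such libraries. Of the 34075 identifiers, 0 were found among the 41476 RefSeq genes (assembly SLM_r2.1), so lists of other GABA shunt genes and of tissue markers could not be matched and are not reported. Genes named are the 4 members and, for each, the gene most correlated with it over group means. Members and lists were chosen with earlier results of these data known. No libraries were identical.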

Additional observations from a re-analysis of the deposited data

Results flagged for a closer look

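The change between 25 and 34 dpa differed from that in WT, by an interaction term in limma, for all 4 genes in both mutants sampled at both ages. Of all tested genes 69.1% were called in dml2-3 and 70.4% in rin/tdr4-1. The counts by themselves thus do not set the 4 genes apart. In dml2-3 the differences from the WT change were 3.15 for GAD2, 2.26 for GAD3, 1.99 for GABA-TP1 and -0.80 for GAD1. In rin/tdr4-1 they were 3.64 for GAD2, 2.79 for GAD3, 1.01 for GABA-TP1 and 0.62 for GAD1, and only the first 2 of these stayed called with size factors. The effect of tdr4-1 differed with and without rin for all 4 genes, and for 67.7% of all tested genes. The differences were 1.91 for GAD3, 0.71 for GABA-TP1, -0.51 for GAD1 and -1.15 for GAD2. Of the last set, size factors ended the call for GABA-TP1 (0.31) and quantile scaling that for GAD1 (-0.20).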

How the results depend on the processing

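Of the 32 differences (4 genes in 8 comparisons: the WT stages and each mutant against WT), 21 kept direction and call under all 35 alternatives and 11 did not. With size factors GAD1 in dml2-3 against WT at 34 dpa was -0.32, and in rin-1 against WT GAD3 was 0.21 and GABA-TP1 -0.26. GAD1 also turned to -0.30 in rin/tdr4-1 against rin-1, -0.35 in rin/tdr4-1 against tdr4-1, -0.058 in rin-1 against tdr4-1 and -0.23 in dml2-3 against nor-1. TPM gave 0.30 for GAD3 and -0.10 for GABA-TP1 in rin-1 against WT, -0.022 for GAD2 and -0.36 for GABA-TP1 in dml2-3 against WT at 25 dpa, and 0.070 for GAD2 in dml2-3 between stages. Quantile scaling gave -0.26 for GAD3 and -0.16 for GABA-TP1 in rin-1, -0.42 for GAD3 in tdr4-1, and 0.21 for GAD3 and 0.36 for GABA-TP1 in nor-1, each against WT. It also gave 0.019 for GAD2 and 0.46 for GABA-TP1 in rin/tdr4-1 against WT at 25 dpa and -0.017 for GAD1 in dml2-3 between stages. With only the groups compared in the fit, GAD3 in rin-1 against WT was 0.39 and no longer called. The cause of these shifts was not tested.

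Leaving out 1 library at a time gave these ranges against WT at 34 dpa: 0.17 to 0.23 for GAD1 in dml2-3, 0.28 to 0.54 for GAD3 and -0.039 to 0.15 for GABA-TP1 in rin-1, and 0.35 to 0.54 for GABA-TP1 in nor-1. Against WT at 25 dpa they were -0.21 to 0.16 for GAD2 and -0.47 to -0.021 for GABA-TP1 in dml2-3, and 0.19 to 0.29 for GAD1 and 0.21 to 0.39 for GABA-TP1 in rin/tdr4-1. Elsewhere the sign turned for GAD1 (-0.077 to 0.11) and GAD2 (-0.25 to 0.11) in dml2-3 between stages, GAD1 in rin/tdr4-1 against rin-1 (-0.014 to 0.026) and GAD2 in dml2-3 against rin/tdr4-1 at 25 dpa (-0.044 to 0.32), none of them called in the full fit.

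Libraries with the same number shared little (r of -0.17 to 0.14 between their deviations from group means), so the numbers were not taken as pairs. With the replicate block, 14531 genes were called between the WT stages, against 14555 without it. Of the 84 differences it ended only the call of GAD3 in rin/tdr4-1 between stages (0.34, adjusted p = 0.0585). Read depth is unknown, and differences of GAD3 near 1 FPKM depend on the added constant (-2.46 with 1 and -3.02 with 0.1 FPKM in WT).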
